A study of Mus musculus with 12 samples.

Results

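The genes that store iron, export it and break down heme were followed in murine bone marrow–derived macrophages (BMDMs) by RNA sequencing (RNA-seq). They are the 10 genes Ftl1, Fth1, Hmox1, Blvrb, Slc40a1, Cp, Tfrc, Slc11a1, Slc11a2 and Lcn2, taken by name from a table of 34363 genes. The BMDMs were grown in culture from wild-type C57BL/6J marrow with medium conditioned by L929 cells, and they were kept in gels of rat tail collagen I or on tissue culture (TC) plates. The gels held 2 mg/ml of collagen (low-collagen gels) or 7 mg/ml (high-collagen gels). On each of these matrices they were left untreated or given the type 2 cytokine IL-4 (20 ng/ml), and the sample names give 24 hours, although the protocol for gels gives a wider range of times. Each of the 6 conditions had 2 libraries, 12 in all, and the study asked how the density of the collagen matrix alters the response of macrophages to IL-4. Per the paper, the collagen concentration also changed the stiffness and the pore size of the gels. Between high- and low-collagen gels these cannot be told apart.

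Macrophages recycle iron from senescent red cells. Heme is opened by heme oxygenase, the freed iron is stored in ferritin, a shell of heavy and light chains, or leaves the cell through ferroportin, and iron bound to transferrin enters through the transferrin receptor. When cellular iron is low, iron regulatory proteins bind a hairpin in the RNA, the iron-responsive element (IRE), which blocks translation where the hairpin lies in the 5′ untranslated region (UTR) and protects the RNA where it lies in the 3′ UTR. RNA-seq reads the amount of RNA only, so control of translation through a 5′ hairpin is outside these values.

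Genes of storage, export and uptake can carry this hairpin, and its sites are printed here for the 4 members in which a search of the GRCm38 transcripts (GENCODE) found one. The search asked for a C, 5 bases, a loop of CAGTGN and 5 bases that pair with the first 5, with G-T pairs allowed, and the loop is in capitals in each site of 27 bases.
Fth1, 5′ UTR, chr19:9982733-9982759, plus strand: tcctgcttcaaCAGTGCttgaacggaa
Ftl1, 5′ UTR, chr7:45459780-45459806, minus strand: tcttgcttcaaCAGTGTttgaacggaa
Slc40a1, 5′ UTR, chr1:45925466-45925492, minus strand: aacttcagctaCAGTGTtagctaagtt
Tfrc, 3′ UTR, chr16:32631220-32631246, plus strand: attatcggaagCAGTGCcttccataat
Tfrc, 3′ UTR, chr16:32631599-32631625, plus strand: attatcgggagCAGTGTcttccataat
Tfrc, 3′ UTR, chr16:32631664-32631690, plus strand: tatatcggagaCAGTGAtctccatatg
Tfrc, 3′ UTR, chr16:32631711-32631737, plus strand: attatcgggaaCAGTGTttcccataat
Both ferritin chains and the exporter carried 1 match each before the coding sequence, and the transferrin receptor carried 4 behind it. Over all 22044 genes with UTRs, 0.141% had a match in the 5′ UTR and 0.653% in the 3′ UTR. A match is a description of the letters and no measurement of binding. Slc11a2, which is known to have an IRE in some of its transcripts, had no match to this pattern.

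Abundance was given in TPM, a unit of transcript abundance that allows for transcript length and has a common sum over each library, so levels of different genes can be set side by side on this scale. The sequencing depth is lost in this unit and is unknown here. Replicates correlated at 0.980 to 0.985 on the log2(TPM + 1) scale, and 11543 to 11910 genes reached 1 TPM in a library. Of 7 macrophage markers 6 were found by symbol, and the summed TPM of those were between 17249 and 53081. Lyz2 alone held 13223 to 48901 TPM of that sum. With IL-4 Lyz2, Csf1r, Mertk and Fcgr1 had lower means on every matrix, and Adgre1 and Cd68 had higher means. Itgam was not found, in a look-up that skips symbols listed for more than 1 gene. The summed TPM of 10 neutrophil markers were 11.3 to 51.7, with Ly6g at 0 in all 12 libraries and S100a8 at 2.79 to 12.5, S100a9 at 0.422 to 17.7 and Mmp8 at 4.74 to 16.3 TPM. The erythroid genes Hbb-bt and Alas2 were also at 0 in all libraries, and the 8 erythroid markers together held 0.106 to 2.63 TPM. In such bulk samples, fewer cells of a type and less RNA per cell cannot be told apart.

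Differences were tested with limma on log2(TPM + 1), over the 11852 genes with a mean of at least 1 TPM in the 8 gel libraries or the 11865 genes in all 12, and a gene was called at a Benjamini-Hochberg adjusted p-value under 0.2. Folds are on that scale, which understates the change of low genes. The smallest p-value of an exact permutation test of 2 libraries against 2 is 0.33. The p-values measure the spread between libraries, which may be technical, because nothing in the labels says that replicates came from separate cultures or animals. Of the 10 members 9 reached the filter, and Lcn2 did not. The values of each member in each library are shown in the plot of levels.

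**Figure D1:**
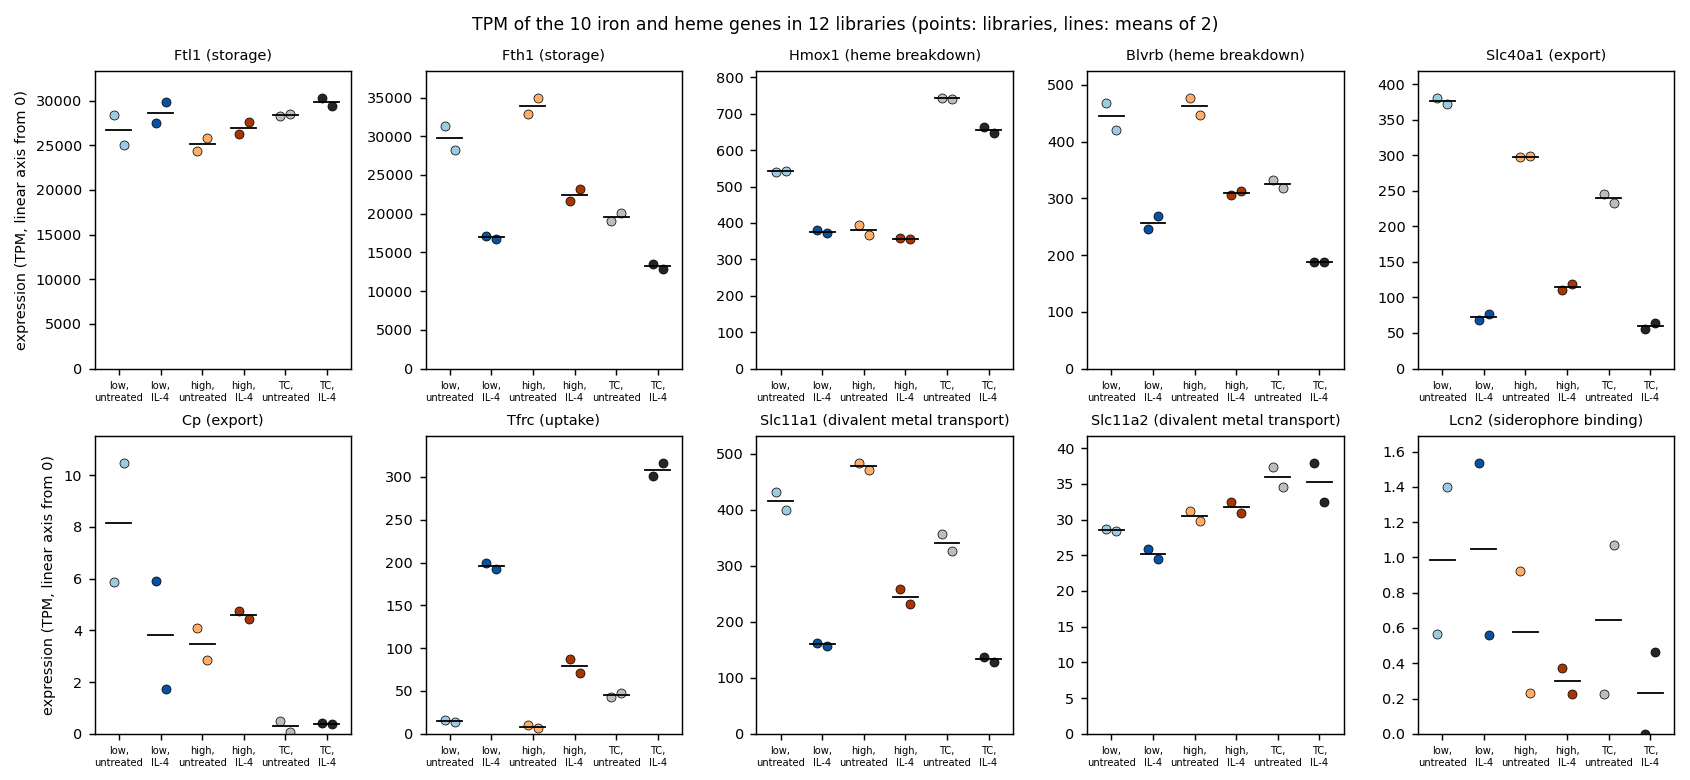
TPM of each member (vertical axes, linear from 0, with a scale for each gene) in the 6 conditions, with a point for each of the 2 libraries of a condition and a line at their mean. Tfrc was highest in the IL-4 conditions, with 301 and 316 TPM on TC plates, and Slc40a1 was lowest there, with 56.1 and 64.7 TPM.

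Ferritin was among the most abundant RNAs of these cells. With Lyz2, the lysozyme of macrophages, Fth1 and Ftl1 held the first 3 ranks in every library, and the ferritin chains together took 4.25% to 6.10% of a library's TPM. The heavy chain gene Fth1 (ENSMUSG00000024661, chr19:9980598-9985098), whose product oxidises iron for storage, fell with IL-4 on all 3 matrices, whereas the light chain gene Ftl1 was not called for IL-4 on any of them.

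In low-collagen gels Fth1 was at 31340 and 28257 TPM untreated and at 17165 and 16792 TPM with IL-4. In high-collagen gels the libraries had 32860 and 34980 TPM untreated and 21701 and 23146 TPM with IL-4. On TC plates they had 18994 and 20089 TPM untreated and 13441 and 12918 TPM with IL-4. The untreated libraries lay above those with IL-4 on every matrix, with no overlap. IL-4 lowered Fth1 1.75-fold in low-collagen gels (log2 fold change −0.81, SE 0.066, adjusted p = 0.00011 by limma) and 1.51-fold in high-collagen gels (−0.60, adjusted p = 0.000789). On TC plates the fall was 1.48-fold (−0.57, adjusted p = 0.000115), a direction that quantile normalization, which fixes the values of the top ranks, turned to 0.15.

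Fth1 was also compared between dense and loose gels. With IL-4 it was 1.32-fold higher in high- than in low-collagen gels (log2 fold change 0.40, SE 0.066, adjusted p = 0.023 by limma), and this call was lost with no filter on low genes (adjusted p = 0.262) and at 0.00 under quantile normalization. Without IL-4 the difference of 0.19 was not called (adjusted p = 0.229), and it was called at 0.26 when replicate 1 of untreated low-collagen gels was left out (adjusted p = 0.163). The interaction of collagen and IL-4, defined as the response to IL-4 in dense gels less the response in loose gels, was 0.21 for Fth1 with a 95% interval from −0.0042 to 0.43 and was not called (adjusted p = 0.511).

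Ftl1 (ENSMUSG00000050708, chr7:45457944-45459884) varied least of the members, 1.25-fold from 24317 TPM in a library of untreated high-collagen gels to 30317 TPM in a library of TC plates with IL-4. The IL-4 effect was 0.10 in low-collagen gels (adjusted p = 0.33), 0.10 in high-collagen gels (adjusted p = 0.394) and 0.07 on TC plates (adjusted p = 0.498). In low-collagen gels it was called as a rise under median-ratio rescaling of the libraries (0.31, adjusted p = 0.139) and when replicate 1 of untreated low-collagen gels was left out (0.20, adjusted p = 0.0868). Under quantile normalization it was called at 0.70 in low-collagen gels (adjusted p = 1.22e-06) and at 0.38 in high-collagen gels (adjusted p = 2.81e-05). Its values carry a further limit, since 57.7% of its words of 31 bases are shared with transcripts of 30 other genes, of which the pseudogene Ftl1-ps1 was listed at 66.0 to 134 TPM. For Fth1 that share was 3.24%.

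The ratio of heavy to light chain RNA set the conditions apart. In untreated low-collagen gels Fth1 over Ftl1 was 1.103 and 1.131, and with IL-4 it was 0.625 and 0.562. In untreated high-collagen gels it was 1.35 in both libraries, and with IL-4 it was 0.826 and 0.838. On TC plates it was 0.671 and 0.704 untreated, and 0.443 and 0.439 with IL-4. Heavy chain RNA outnumbered light chain RNA in the 4 untreated gel libraries and in no other library.

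**Figure D2:**
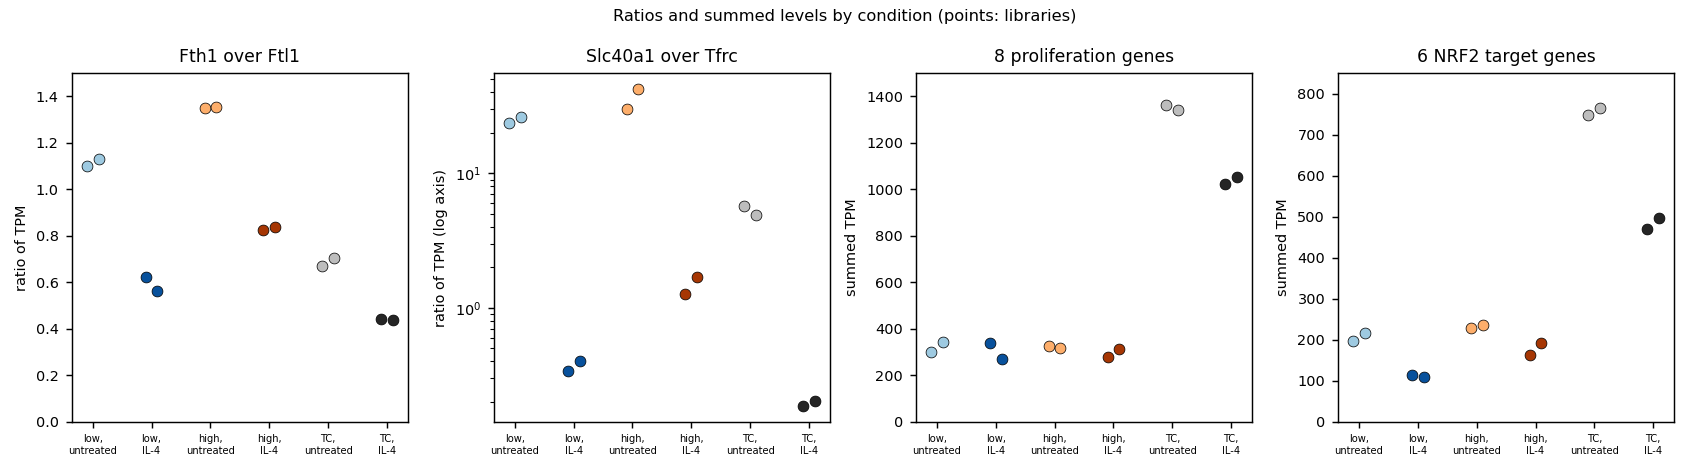
Ratio of Fth1 to Ftl1 TPM, ratio of Slc40a1 to Tfrc TPM (log axis), and summed TPM of 8 proliferation genes and of 6 NRF2 target genes (vertical axes) in the 6 conditions, with a point for each library. Fth1 over Ftl1 lies above 1 only in untreated gels, and Slc40a1 over Tfrc runs from 0.187 on TC plates with IL-4 to 42.3 in untreated high-collagen gels.

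Hmox1 (ENSMUSG00000005413, chr8:75093621-75100589), the inducible heme oxygenase, fell with IL-4 in low-collagen gels and on TC plates, and it was lower in dense than in loose gels when IL-4 was absent. In low-collagen gels it was at 541 and 543 TPM untreated and at 379 and 373 TPM with IL-4. In high-collagen gels it was at 394 and 368 TPM untreated and at 358 and 355 TPM with IL-4. TC plates held the highest levels, with 744 and 740 TPM untreated and 664 and 648 TPM with IL-4. The groups with and without IL-4 did not overlap on any matrix.

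IL-4 lowered Hmox1 1.44-fold in low-collagen gels (log2 fold change −0.53, SE 0.055, adjusted p = 0.000365 by limma) and 1.13-fold on TC plates (−0.18, adjusted p = 0.0203). In high-collagen gels the difference was −0.10 (95% interval −0.22 to 0.03) and was not called (adjusted p = 0.281), although it was when TC plates joined the fit (adjusted p = 0.184) and under quantile normalization (−0.20). In untreated cells it was 1.42-fold lower in high- than in low-collagen gels (−0.51, adjusted p = 0.0187). With IL-4 the difference of −0.08 was not called (adjusted p = 0.443). For Hmox1 the interaction was 0.43 (SE 0.077, adjusted p = 0.19), and this call did not survive leaving out any 1 of the 8 gel libraries, with values from 0.38 to 0.48 and adjusted p-values from 0.278 to 0.496. It was also lost with a pseudocount of 0.1 (adjusted p = 0.224), without the mean-variance trend (adjusted p = 0.429) and with rescaling (0.33, adjusted p = 0.438).

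Hmox1 is a known target of the transcription factor NRF2, and 6 other targets of NRF2 (Nqo1, Gclm, Gclc, Srxn1, Txnrd1 and Slc7a11) were summed beside it. Their sum was 197 to 215 TPM in untreated low-collagen gels and 109 to 115 TPM with IL-4. In high-collagen gels it was 229 to 235 TPM untreated and 163 to 192 TPM with IL-4. TC plates had 748 to 765 TPM untreated and 471 to 497 TPM with IL-4. Of the 6 genes 5 were called lower with IL-4 in low-collagen gels, where 53.6% of all genes were called. In high-collagen gels Slc7a11 was at 2.85 and 1.83 TPM untreated and at 5.93 and 3.65 TPM with IL-4. On TC plates Gclc was at 32.4 and 31.9 TPM untreated and at 31.9 and 33.6 TPM with IL-4. The other genes of the list had lower means with IL-4 on those matrices. Of the same 6, 0 were called by limma between dense and loose gels without IL-4, where Hmox1 was lower (0 at an unadjusted p under 0.05), in a comparison that called 8.02% of all genes. Their part in the Hmox1 values was not tested. An antioxidant response motif, TGACNNNGC, was searched on both strands of promoter windows of 300 bases. It was in 0 of the 7 members that the RefSeq table for GRCm38.p6 holds, against 14.0% of the genes in that table. So few genes cannot be set apart from that share, and sites outside the windows were not searched. The promoter of Hmox1 was not analysed here.

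Blvrb (ENSMUSG00000040466, chr7:27447978-27466144), a biliverdin reductase that acts after heme oxygenase, fell with IL-4 on all 3 matrices. It was at 469 and 420.4 TPM in untreated low-collagen gels and at 245 and 268 TPM there with IL-4. In high-collagen gels it was at 478 and 447 TPM untreated and at 307 and 313 TPM with IL-4. On TC plates it was at 332 and 319 TPM untreated and at 188 TPM in both libraries with IL-4. No library with IL-4 reached any untreated library of the same matrix. The log2 fold changes for IL-4 were −0.79 in low-collagen gels (adjusted p = 0.000243 by limma), −0.57 in high-collagen gels (adjusted p = 0.00178) and −0.79 on TC plates (adjusted p = 2.36e-05). With IL-4 it was 1.21-fold higher in high- than in low-collagen gels (0.27, adjusted p = 0.0847). That call was lost with rescaling (0.20, adjusted p = 0.312) and without either library of high-collagen gels with IL-4 or replicate 1 of low-collagen gels with IL-4 (0.21 to 0.29, adjusted p = 0.208 to 0.295).

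Slc40a1 (ENSMUSG00000025993, chr1:45908068-45926523), which encodes ferroportin, the only known exporter of iron from the cell, was the member with the largest fall under IL-4. Low-collagen gels had 381 and 373 TPM untreated and 67.9 and 77.2 TPM with IL-4. High-collagen gels had 298 and 299 TPM untreated and 111 and 119 TPM with IL-4. TC plates had 245 and 234 TPM untreated and 56.1 and 64.7 TPM with IL-4. Every library with IL-4 lay below every library without it, whatever the matrix.

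The fall was 5.15-fold in low-collagen gels (log2 fold change −2.36, SE 0.076, adjusted p = 1.05e-06 by limma), 3.93-fold on TC plates (−1.97, adjusted p = 2.18e-07) and 2.59-fold in high-collagen gels (−1.37, adjusted p = 2.28e-05). Between dense and loose gels the differences with and without IL-4 were of opposite sign. In untreated cells Slc40a1 was 1.26-fold lower in high-collagen gels (−0.34, adjusted p = 0.0978), a call that was lost without any 1 of the 4 libraries compared (−0.35 to −0.32, adjusted p = 0.228 to 0.293) and without the mean-variance trend (adjusted p = 0.211). With IL-4 it was 1.58-fold higher in high-collagen gels (0.66, adjusted p = 0.00968). The interaction was 0.99 (SE 0.107, 95% interval 0.74 to 1.24, adjusted p = 0.0326), and it kept its call under each alternative, with 0.90 to 1.08 and adjusted p-values from 0.0697 to 0.193 when 1 gel library was left out.

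Cp (ENSMUSG00000003617, chr3:19957054-20009145) encodes ceruloplasmin, a ferroxidase that loads exported iron onto transferrin, and its RNA was scarce. Low-collagen gels had 5.85 and 10.5 TPM untreated and 5.91 and 1.72 TPM with IL-4. High-collagen gels had 4.08 and 2.84 TPM untreated and 4.76 and 4.42 TPM with IL-4. All 4 libraries of TC plates were under 1 TPM, from 0.0813 to 0.508 TPM, so Cp reached the filter only through the gels and its difference between gels and plates is a description. The call for IL-4 in low-collagen gels (−1.03, SE 0.429, adjusted p = 0.106) came from groups that overlapped. It was lost without replicate 2 of untreated low-collagen gels (−0.66) or replicate 2 of low-collagen gels with IL-4 (−0.36), and with no filter (adjusted p = 0.242).

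Tfrc (ENSMUSG00000022797, chr16:32608920-32632794), the receptor that takes up iron-loaded transferrin, had the 4 matches to the hairpin pattern in the 3′ UTR. It was the only member called higher with IL-4, on all 3 matrices, apart from the alternatives named above that raised Ftl1. In low-collagen gels it went from 16.0 and 14.1 TPM untreated to 199 and 192 TPM with IL-4. In high-collagen gels it went from 9.95 and 7.07 TPM to 87.4 and 70.6 TPM. On TC plates it went from 42.6 and 47.4 TPM to 301 and 316 TPM. The lowest library with IL-4 was above the highest untreated library of any matrix.

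The rise was 12.3-fold in low-collagen gels (log2 fold change 3.62, SE 0.160, adjusted p = 4.34e-06 by limma), 8.46-fold in high-collagen gels (3.08, adjusted p = 1.58e-05) and 6.73-fold on TC plates (2.75, adjusted p = 9.54e-07). By size of change it ranked 45 among all genes in low-collagen gels, 39 in high-collagen gels and 69 on TC plates. With IL-4 Tfrc was 2.47-fold lower in high- than in low-collagen gels (−1.31, SE 0.160, adjusted p = 0.0101). In untreated cells it was 1.71-fold lower (−0.77, adjusted p = 0.0824), and that call was lost without replicate 2 of untreated high-collagen gels (−0.55, adjusted p = 0.247) or without either library of untreated low-collagen gels (−0.69 and −0.85, adjusted p = 0.223 and 0.204). The interaction of −0.54 was not called (95% interval −1.06 to −0.01, adjusted p = 0.5).

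RNA of the exporter fell and RNA of the receptor rose with IL-4, and the ratio of Slc40a1 to Tfrc TPM spanned the widest range of the ratios computed. In untreated cells it was 23.9 and 26.4 in low-collagen gels and 29.9 and 42.3 in high-collagen gels. IL-4 brought it to 0.341 and 0.402 in low-collagen gels and 1.27 and 1.69 in high-collagen gels. On TC plates it was 5.76 and 4.93 untreated, and 0.187 and 0.205 with IL-4. With IL-4, exporter RNA exceeded receptor RNA in dense gels and in neither loose gels nor plates.

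**Figure D3:**
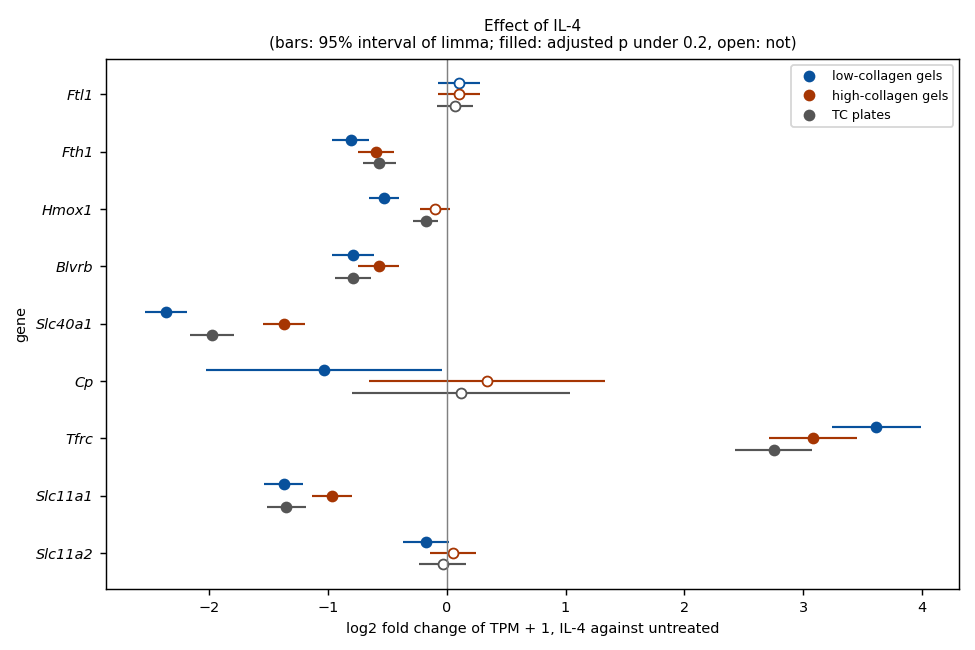
Log2 fold change of TPM + 1 for IL-4 against untreated (horizontal axis) of the 9 members tested (vertical axis) in low-collagen gels, high-collagen gels and on TC plates, with bars for the 95% interval of limma and filled points at an adjusted p-value under 0.2. Tfrc lies at 2.75 to 3.62 and Slc40a1 at −2.36 to −1.37, and the points of Ftl1 are open on all 3 matrices.

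Slc11a1 (ENSMUSG00000026177, chr1:74375195-74386062) encodes a metal transporter of the phagosome, and C57BL/6 mice are known to carry a loss-of-function allele of it. Its RNA was at 432 and 399.9 TPM in untreated low-collagen gels and at 163 and 157 TPM with IL-4. In high-collagen gels it was at 484 and 472 TPM untreated and at 258 and 231 TPM with IL-4. TC plates had 357 and 326 TPM untreated and 138 and 129 TPM with IL-4. Untreated libraries were above those with IL-4 on every matrix, and within each treatment the dense gels were highest. IL-4 lowered it 2.59-fold in low-collagen gels (log2 fold change −1.37, adjusted p = 1.01e-05 by limma), 1.95-fold in high-collagen gels (−0.97, adjusted p = 9.45e-05) and 2.55-fold on TC plates (−1.35, adjusted p = 1.06e-06). Among cells with IL-4 it was 1.52-fold higher in high- than in low-collagen gels (0.61, SE 0.071, adjusted p = 0.00986). Without IL-4 the difference of 0.20 was not called (adjusted p = 0.236), although it was when TC plates joined the fit (adjusted p = 0.189) and under quantile normalization (0.25, adjusted p = 0.132). Not called either was the interaction of 0.41 (95% interval 0.17 to 0.64, adjusted p = 0.339).

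Its relative Slc11a2 (ENSMUSG00000023030, chr15:100387898-100425072), which carries iron across the endosomal membrane after uptake by transferrin, stayed between 24.5 and 37.9 TPM in all 12 libraries. Low-collagen gels had 28.6 and 28.4 TPM untreated and 25.9 and 24.5 TPM with IL-4, and high-collagen gels had 31.2 and 29.8 TPM untreated and 32.5 and 30.9 TPM with IL-4. IL-4 lowered it by a call in low-collagen gels only at −0.17 (adjusted p = 0.147 by limma), which turned to 0.03 with rescaling and 0.02 with quantile normalization. That call was also lost without either library of untreated low-collagen gels or replicate 2 with IL-4 (−0.18 to −0.14). With IL-4 it was 1.25-fold higher in high- than in low-collagen gels (0.32, SE 0.083, adjusted p = 0.0697), a call lost without either library of high-collagen gels or replicate 2 of low-collagen gels (0.28 to 0.36, adjusted p = 0.209 to 0.285).

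Lcn2 (ENSMUSG00000026822, chr2:32384633-32388252), whose product binds bacterial siderophores and is stored in neutrophil granules, was between 0 and 1.54 TPM and was not tested. Its libraries overlapped between most conditions, with replicates 4.70-fold apart on untreated TC plates. The part of the neutrophil markers given above in its values was not tested.

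Counted together, 8 of the 9 members tested were called for IL-4 in low-collagen gels, 1 higher and 7 lower, where 53.6% of all genes were called. In high-collagen gels 5 were called, 1 higher and 4 lower, against 34.3% of all genes. On TC plates 6 were called, 1 higher and 5 lower, against 38.8% of all genes. The median change over the 9 members was −0.79 in low-collagen gels, −0.10 in high-collagen gels and −0.18 on TC plates, beside medians over all genes of −0.19, −0.10 and −0.06. Median-ratio rescaling moved the median over all genes by more than 0.1 in low-collagen gels, to −0.0047, and the share of higher calls among all genes there from 24.7% to 52.8%. In high-collagen gels that share moved from 33.6% to 53.0% and on TC plates from 38% to 48.2%. Slc40a1, Slc11a1, Blvrb, Fth1 and Tfrc kept their direction and their call for IL-4 under rescaling on all 3 matrices.

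Between high- and low-collagen gels without IL-4, 3 of 9 members were called, all lower (Hmox1, Slc40a1 and Tfrc), where 8.02% of all genes were called, with 1 to 4 members called when a library was left out and 5 with all 12 libraries in the fit. With IL-4, 6 were called, 5 higher and 1 lower, against 21.1% of all genes, a comparison in which rescaling moved the share of higher calls among all genes from 66.9% to 47.4%. The higher ones were Fth1, Blvrb, Slc40a1, Slc11a1 and Slc11a2, and the lower one was Tfrc. The interaction was called for Hmox1 and Slc40a1, 2 of 9, against 0.363% of all genes, and only Slc40a1 held its call under rescaling. These comparisons share their libraries with one another.

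**Figure D4:**
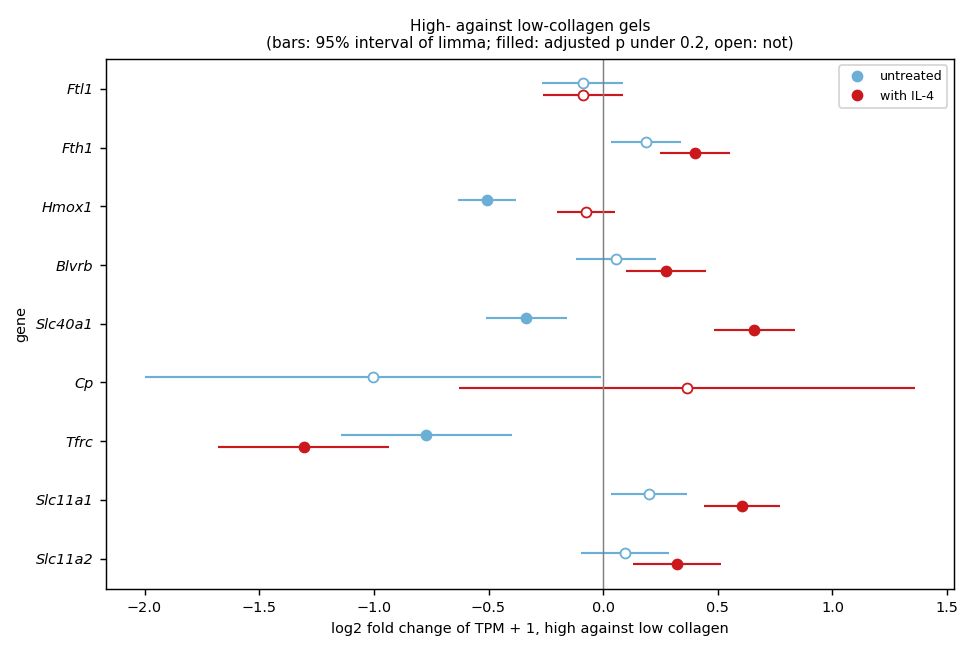
Log2 fold change of TPM + 1 for high- against low-collagen gels (horizontal axis) of the 9 members tested (vertical axis), untreated and with IL-4, with bars for the 95% interval of limma and filled points at an adjusted p-value under 0.2. Slc40a1 lies at −0.34 untreated and at 0.66 with IL-4, and Tfrc lies below 0 in both, at −0.77 and −1.31.

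Culture in gels was also compared with TC plates. The collagen itself, growth within a gel and the handling of gels before RNA extraction cannot be told apart in these comparisons. In low-collagen gels 8 of 9 members were called without IL-4, 5 higher and 3 lower, against 72.8% of all genes, and 8 with IL-4, 5 higher and 3 lower, against 75.1%. In high-collagen gels all 9 were called, 5 higher and 4 lower, both without IL-4, against 73.5%, and with IL-4, against 74.6%. Without Cp, which reached the filter only through the gels, the counts were 7, 7, 8 and 8 of 8 members. Most genes of the table were called here. The medians over all genes were −0.13, −0.28, −0.16 and −0.20 in this order and came to between 0.0065 and 0.017 with rescaling.

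Fth1, Blvrb, Slc40a1 and Slc11a1 were higher in both gels than on plates, with and without IL-4, and Hmox1 and Tfrc were lower, directions that held with rescaling. The largest of these was Tfrc in untreated high-collagen gels, 4.89-fold lower than on plates (log2 fold change −2.29, SE 0.145, adjusted p = 8.54e-07 by limma). With IL-4 it was 3.89-fold lower in high-collagen gels (−1.96) and 1.57-fold lower in low-collagen gels (−0.65, adjusted p = 0.00309). Hmox1 was 1.95-fold lower in untreated high-collagen gels (−0.96, adjusted p = 1.6e-07) and 1.37-fold lower in untreated low-collagen gels (−0.45, adjusted p = 1.98e-05). Fth1 was 1.74-fold higher in untreated high-collagen gels (0.80, adjusted p = 2.89e-06) and 1.52-fold higher in untreated low-collagen gels (0.61, adjusted p = 1.89e-05). With IL-4 Fth1 was higher by 0.37 in low- and by 0.77 in high-collagen gels, and quantile normalization turned both to −0.15.

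Slc40a1 was 1.89-fold higher in high-collagen gels than on plates with IL-4 (log2 fold change 0.92, adjusted p = 8.3e-06 by limma) and 1.57-fold higher in untreated low-collagen gels (0.65, adjusted p = 8.56e-05). Slc11a1 was 1.83-fold higher in high-collagen gels with IL-4 (0.87, adjusted p = 5.47e-06). Ftl1 was called lower in high-collagen gels only, at −0.18 untreated and −0.15 with IL-4, and with rescaling these came to 0.013 and 0.10, while low-collagen gels with IL-4 came to 0.26. Those calls of Ftl1 were also lost without replicate 1 of the high-collagen gels of the same treatment (−0.14 and −0.11), and the call with IL-4 without replicate 1 of TC plates with IL-4 (−0.13). For Slc11a2, at 37.3 and 34.6 TPM on untreated plates and 37.9 and 32.5 TPM on plates with IL-4, the values were −0.32 and −0.46 in low- and −0.23 and −0.14 in high-collagen gels, untreated and with IL-4. Quantile normalization ended both calls in low-collagen gels (−0.13, adjusted p = 0.241 and 0.258). Rescaling ended its call in untreated high-collagen gels (−0.041), as did leaving out replicate 1 of untreated plates (−0.18), and turned the last value to 0.10. The call of that last value was lost without any 1 of 11 libraries, all but replicate 2 of plates with IL-4 (−0.18 to −0.034).

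Cells on plates also differed in other ways that were measured. The summed TPM of 8 proliferation genes were 268 to 342 in the 8 gel libraries. They were 1339.8 to 1365 on untreated plates and 1025 to 1054 on plates with IL-4. All 8 genes were lower in gels in each of the 4 comparisons, in which 5257 to 6198 of 11865 genes were called lower. Their part in the values of Tfrc, a receptor known to be abundant on dividing cells, was not tested.

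**Figure D5:**
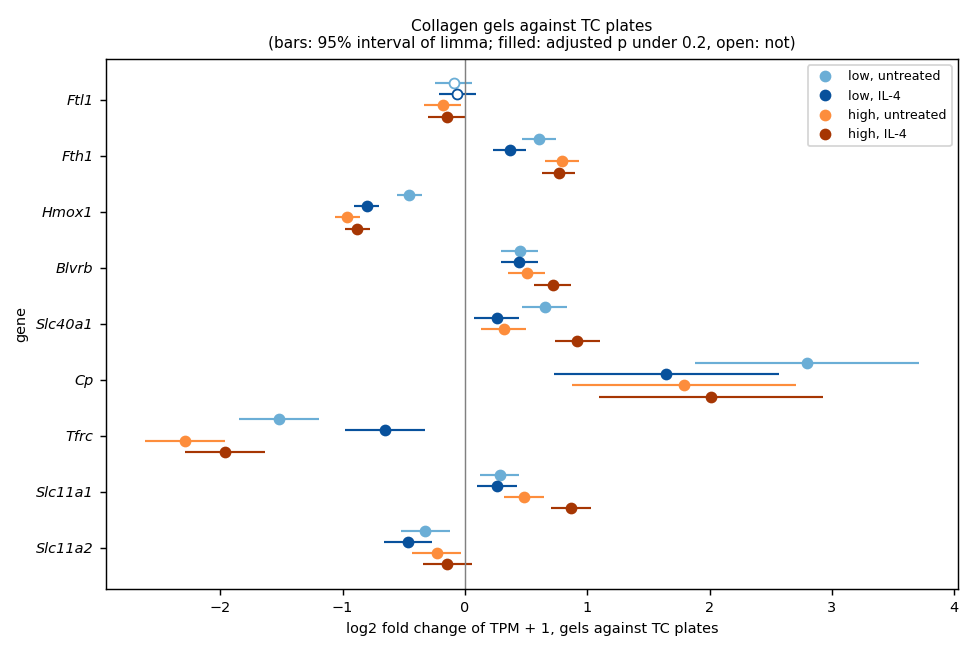
Log2 fold change of TPM + 1 for collagen gels against TC plates (horizontal axis) of the 9 members tested (vertical axis), for low- and high-collagen gels, untreated and with IL-4, with bars for the 95% interval of limma and filled points at an adjusted p-value under 0.2. Tfrc lies at −2.29 to −0.65 and Hmox1 at −0.96 to −0.45, and Fth1 lies at 0.37 to 0.80.

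The size of the IL-4 effect was tested between gels and plates. In low-collagen gels minus TC plates 4 of 9 members were called, 1 higher and 3 lower, against 28% of all genes. In high-collagen gels minus TC plates 2 were called, both higher, against 17.3%. The rise of Tfrc was larger in low-collagen gels than on plates by 0.87 (SE 0.205, adjusted p = 0.0268 by limma). The fall of Hmox1 was larger there by 0.35 (difference −0.35, adjusted p = 0.00971), while those of Slc40a1 (−0.39, adjusted p = 0.0626) and Fth1 (−0.24, adjusted p = 0.112) were not called with rescaling (−0.25 and −0.10). That of Fth1 was also lost without replicate 1 of untreated plates, of plates with IL-4 or of untreated low-collagen gels, or replicate 2 of low-collagen gels with IL-4 (−0.23 to −0.17). The Fth1 call was lost as well with no filter (adjusted p = 0.552) and without the mean-variance trend (adjusted p = 0.228). In high-collagen gels the fall of Slc40a1 was smaller than on plates by 0.60 (SE 0.116, adjusted p = 0.0143) and that of Slc11a1 by 0.38 (SE 0.102, adjusted p = 0.0566).

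Across the 12 libraries, levels of Tfrc ran against those of Slc11a1 (Pearson r = −0.977), Blvrb (−0.965), Fth1 (−0.956) and Slc40a1 (−0.951), and Fth1 ran with Blvrb (0.970). Hmox1 was apart from these, with r between −0.386 and 0.139. Among the 9670 genes with a mean of at least 5 TPM, the levels most like those of Hmox1 were Slc3a2 (r = 0.992), Galnt4 (0.981) and Anxa7 (0.977). Close to Slc40a1 were Icosl (0.984) and Rnf150 (0.981). Those most like Tfrc were Lgals3 (0.992), Dhrs9 (0.986) and Vat1 (0.984). These are descriptions, since the 12 points come from 6 conditions that all genes share.

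A list of 51 other iron and heme genes gave a setting for the members, and 41 of them were tested. With IL-4, 5 were called higher and 23 lower in low-collagen gels, 5 higher and 18 lower in high-collagen gels, and 7 higher and 15 lower on TC plates. With rescaling these were 9 and 17, 6 and 15, and 9 and 13. Over all genes 53.6%, 34.3% and 38.8% were called. The medians over the list were −0.39, −0.19 and −0.20. The 5 genes called higher were the same in both gels, namely Aco1, which encodes iron regulatory protein 1, Alas1, which starts heme synthesis, Hfe, Iscu and Steap3, and they are named here after their values were seen. Aco1, Alas1 and Hfe were called higher on TC plates too. A further 17 genes were called lower in both gels, and 12 of those on TC plates as well. Over all genes, 4784 of 11852 were called lower in low-collagen gels and 2698 in high-collagen gels. On TC plates 2853 of 11865 were called lower. How many of all genes these calls had in common, higher or lower, was not computed, so the shared counts are descriptions.

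Of 9 genes of heme and hemoglobin uptake and transport 6 were tested for IL-4, and Flvcr1 and Flvcr2 were not found by symbol. All 6 were called lower in low-collagen gels (5 with rescaling), where 53.6% of all genes were called, and 5 of 6 in high-collagen gels, against 34.3%. On TC plates 2 were called lower and 1 higher, against 38.8%. Slc48a1, which carries heme out of the phagolysosome, was at 212 and 213 TPM in untreated low-collagen gels and at 141 and 147 TPM with IL-4 (log2 fold change −0.55, adjusted p = 0.000301 by limma). On TC plates it was at 207 and 217 TPM untreated and at 231 and 229 TPM with IL-4 (0.12, adjusted p = 0.112). Its IL-4 effect in low-collagen gels minus that on plates was −0.67 (adjusted p = 0.00042). Lrp1, the receptor for heme bound to hemopexin, fell by 0.49 in both gels and by 0.81 on TC plates on the log2 scale. The other genes of heme breakdown, Hmox2, the constitutive heme oxygenase, and Blvra, a second biliverdin reductase, were both called lower with IL-4 on all 3 matrices, from −0.46 to −0.27. With rescaling, Blvra lost that call in low-collagen gels.

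Among genes of iron uptake and reduction, Trf, which encodes transferrin, stood highest in gels, at 421 to 936 TPM against 91.4 to 146 TPM on plates. It was 2.74 higher on the log2 scale in untreated low-collagen gels than on plates (SE 0.107, adjusted p = 5.84e-08 by limma), and its IL-4 effect was −0.82 in low-collagen gels, −0.72 in high-collagen gels and −0.51 on TC plates. Steap3, the endosomal ferrireductase that acts with the transferrin receptor, was lower in gels, at 13.1 to 23.2 TPM against 51.7 to 62.1 TPM on plates. IL-4 raised it by 0.64 in low-collagen gels (adjusted p = 0.00512).

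Among regulators and chaperones of iron, Ncoa4, the receptor that delivers ferritin for breakdown in lysosomes, was at 256 and 269 TPM in untreated low-collagen gels and at 154 and 155 TPM with IL-4. In high-collagen gels it was at 172 and 199 TPM untreated and at 160.2 and 164 TPM with IL-4. TC plates held 101 to 109 TPM in all 4 libraries. The IL-4 effect was −0.76 in low-collagen gels (adjusted p = 0.00033 by limma), and that value minus the one on plates was −0.79 (adjusted p = 0.00142). Nfe2l2, which encodes NRF2, fell with IL-4 on all 3 matrices, by 0.89 on TC plates, 0.73 in low- and 0.48 in high-collagen gels on the log2 scale.

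Of the mitochondrial genes, Slc25a37, the importer mitoferrin, had the largest fall. In low-collagen gels it was at 49.4 and 59.4 TPM untreated and at 15.9 and 12 TPM with IL-4. The log2 fold change there was −1.90 (SE 0.169, adjusted p = 0.000172 by limma), beside −1.40 in high-collagen gels and −1.11 on TC plates. Abcb10, which stabilises mitoferrin, was at 3.78 to 5.07 TPM in gels and 7.05 to 8.51 TPM on plates. The heme synthesis gene Alad was not called for IL-4 on any matrix and was lower in gels than on plates, at −0.94 on the log2 scale in untreated low-collagen gels. With rescaling, it lost its call in high-collagen gels with IL-4 (−0.22). Between dense and loose gels 4 of the 41 genes were called without IL-4, all lower, against 8.02% of all genes, and 14 with IL-4, 9 higher and 5 lower, against 21.1%. The interaction was called for 0 of them by limma at an adjusted p-value under 0.2, where 0.363% of all genes were called. Of the 41 genes, 6 had an unadjusted p under 0.05, a count for which the share of all genes was not computed.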

How the data were processed

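RNA-seq of BMDMs from 12 samples was used. Per the methods, the authors prepared stranded libraries of mRNA for paired-end sequencing and ran kallisto 0.46.1 against GRCm38 transcripts, and they deposited one table of TPM per gene. How transcripts were summed to genes is not given in the sources used here, and reads shared by similar genes are divided by estimation. Of 34456 lines, 93 that repeated a symbol and its values were dropped, none of a member.

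Groups came from the sample labels. limma 3.58.1 (R 4.3.3) was run on log2(TPM + 1) with a mean for each condition and a trend of variance with mean, and p-values were adjusted by Benjamini-Hochberg over all genes with a mean of at least 1 TPM. The 8 gel libraries formed the fit for gel comparisons and all 12 that for TC plates. Calls were made at an adjusted p-value under 0.2. The members and gene lists were chosen with earlier results of these data known. All members are named, and of the other lists up to 2 genes a group with the largest change, a mean of at least 5 TPM and no overlap between groups. For Hmox1, Slc40a1 and Tfrc the 3 genes with the highest correlation are named. Some items that these rules select are not reported here. UTRs came from GENCODE and promoters from RefSeq. Alternatives were a pseudocount of 0.1, no filter or 5 TPM, no trend, median-ratio rescaling, quantile normalization, a block for the replicate number, other libraries in the fit, a threshold of 0.05 and each library left out. The fit was tested on simulated data. Figures used python 3.11.15 and matplotlib 3.10.9.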

Additional observations from a re-analysis of the deposited data

Results flagged for a closer look

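The IL-4 effect of 5 members differed between matrices by a test of the difference itself, with limma at an adjusted p-value under 0.2. Of all genes, these tests called 0.363% between the gels, 28% for low-collagen gels against TC plates and 17.3% for high-collagen gels against them. Between high- and low-collagen gels the effect on the log2 scale differed by 0.99 for Slc40a1 and by 0.43 for Hmox1, and both were the less negative in dense gels. The call of Hmox1 was lost without any 1 of the 8 gel libraries. Between low-collagen gels and TC plates the difference was 0.87 for Tfrc, −0.39 for Slc40a1, −0.35 for Hmox1 and −0.24 for Fth1. Between high-collagen gels and TC plates it was 0.60 for Slc40a1 and 0.38 for Slc11a1. These comparisons share libraries with one another. Against plates, the low-collagen calls of Slc40a1 and Fth1 were lost with median-ratio rescaling (−0.25 and −0.10), and that of Slc40a1 also with quantile normalization (−0.23). The call of Fth1 was also lost with no filter, without the mean-variance trend and when any 1 of 4 libraries was left out.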

How the results depend on the processing

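There were 1972 alternatives to the 108 values of single members. Of these, 1869 kept their side of the threshold without a reversal, 66 lost a call, 25 gained one and 12 reversed. A reversal was counted only where the sign changed and the value before or after was called. Uncalled values that changed sign were counted as kept. Ftl1 between dense and loose gels without IL-4, for example, ran from −0.18 to 0.0047 with 1 library left out. The counted reversals came with rescaling and quantile normalization. With median-ratio rescaling Slc11a2 came to 0.027 for IL-4 in low-collagen gels and, with IL-4, to 0.10 for high-collagen gels against plates. Ftl1 came to 0.26 for low-collagen gels against plates with IL-4, and to 0.013 and 0.10 for high-collagen gels against plates without and with IL-4. With quantile normalization, which sets values by rank, Slc11a2 came to 0.023 and 0.13 in those 2 comparisons, Fth1 to 0.15 for IL-4 on TC plates, to 0 for high against low collagen with IL-4 and to −0.15 for each gel against plates with IL-4, and Ftl1 to −0.32 for the interaction.

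The number of members called changed by over 1.5 times in some comparisons. For high against low collagen without IL-4 it was 3, and it was 5 with all 12 libraries in the fit and 1 at an adjusted p-value under 0.05. For the interaction it was 2, and it was 1 with a pseudocount of 0.1, no trend, rescaling, the replicate block or the threshold of 0.05. For IL-4 in low-collagen gels minus TC plates it was 4, and 2 with rescaling or the threshold of 0.05. For high-collagen gels minus TC plates it was 2, and 4 with quantile normalization and 1 at 0.05. With 1 library left out, whose partner is assumed to vary like the other groups, the counts were 6 to 8, 5 to 5 and 6 to 6 for IL-4 in low-collagen gels, high-collagen gels and on TC plates, 1 to 4 and 4 to 6 for high against low collagen without and with IL-4, and 1 to 1 for the interaction. They were 8 to 9, 8 to 8, 8 to 9 and 7 to 9 for gels against plates, and 3 to 5 and 2 to 3 for the IL-4 effect in low- and high-collagen gels minus plates.

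The replicate numbers, given here by the order of the sample labels, showed no pairing of the libraries. Deviations of same-numbered libraries correlated at −0.123 to 0.109 over 15 pairs of conditions, 1 of them over 0.1. A pairing in another order was not tested. With the replicate block 107 of the 108 values kept their call and Hmox1 lost that for the interaction (adjusted p = 0.329). TPM keep no depth, so the counting error of low genes such as Cp and Lcn2 is unknown.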
